A study of Mus musculus with 4 samples.

Results

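The mitochondrial ribosomal protein genes, named Mrpl for the large subunit and Mrps for the small subunit, were examined in mouse oocytes exposed to high hydrostatic pressure. The 75 members are the genes whose array probes carry a name of Mrpl or Mrps followed by a digit, 46 Mrpl and 29 Mrps genes among 27666 genes on the array. They were chosen by name and not by any measured value. Treated oocytes were kept for 60 min at 37 °C under 20 MPa, and control oocytes were kept alike but without pressure. Each of 4 two-colour arrays carried RNA of 1 treated pool and 1 control pool, each pool holding 50 oocytes, and the submitters call the 4 pools of a group biological replicates. Each labelling started from 240 pg of total RNA and used a kit with repeated rounds of amplification. By the labels the treated pool carried Cy5 (red) and the control pool Cy3 (green) on all 4 arrays, so dye and treatment cannot be told apart. No strain, age or meiotic stage was given in the labels.

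The mitochondrial ribosome sits in the mitochondrial matrix and translates the few messenger RNAs of the mitochondrial genome, which encode core subunits of the respiratory chain and the ATP synthase. Its ribosomal RNAs are transcribed in the organelle, whereas its proteins are encoded in the nucleus, made in the cytosol and imported. The oocyte carries the mitochondria that the embryo inherits, and a growing oocyte stores messenger RNAs that it later uses with transcription switched off.

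Mrpl40, Mrps33 and Mrpl35 gave different ratios at different probes, and the cause was not tested. Parts of those 60-base probes are shown, with their positions in mouse build mm7 as deposited. Mrpl40 had 3 probes that passed the detection filter. The capitals mark the 24 bases that its first and second probe share, at the end of the first and the start of the second, and only the third probe was used for the gene.
Mrpl40 chr16:18422106-18422165, last 30 bases: aggtccCTGAAGGCAGGTACAATGATATCA
Mrpl40 chr16:18422070-18422129, first 30 bases: CTGAAGGCAGGTACAATGATATCAccaagg
Mrpl40 chr16:18421947-18422006, first 30 bases, used: ctactttccacagacaagtgagtcatccta
Mrps33 and Mrpl35 each had a pair of probes that passed the filter, and a further probe that did not. The pairs are shown by their first 30 bases in lower case throughout. The positions deposited for the second Mrps33 probe span an interval longer than the probe itself.
Mrps33 chr6:39732326-39732385, used: aacatgacttccctcagtagacgccaaccc
Mrps33 chr6:39732529-39735414: gtttccttggcctttacagagatgagcatc
Mrpl35 chr6:71833214-71833273, used: caggctctcttagttgtatcagtaggttca
Mrpl35 chr6:71834019-71834078: tggcgatccttaccagatgtaccacgatcg

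Replicate 1 stood apart from the other arrays. Over all probes its log2 ratios correlated at -0.17, -0.15 and -0.19 with those of replicates 2, 3 and 4, while the other pairs of arrays correlated at 0.09 to 0.29. The ratio of treated to control at the 99th percentile of background-subtracted signal was 2.56 in replicate 1, against 0.25 to 0.39 on the other arrays. Whether the dyes of replicate 1 match its label was not tested, and a mismatch would turn the sign of its ratios. For that reason, means without it are also given for many of the genes, though not for all. Of 43379 spots, 7049 to 11155 exceeded background clearly for treated pools and 8309 to 10837 did so for control pools, and the treated pool had more of them than its control in replicate 1 alone. Of 12 oocyte markers on the array, 7 passed the detection filter in treated pools and 8 in control pools, among them Gdf9, Bmp15 and Zp3, while Zp2, Mos, Figla and Nlrp5 did not pass. Of 14 cumulus and granulosa cell markers, 3 passed in treated and 5 in control pools, with summed signals of 1512 to 4679 in treated and 1733 to 3818 in control pools. Their part in the results below was not tested. Each labelling started from the same mass of total RNA and each array was normalised within itself, so the ratios are relative to the array. A loss of messenger RNA common to all genes would not show in them. In pools of whole cells, a change in every oocyte and a change in some of them cannot be told apart. The p-values measure the spread between these 4 pairs of pools.

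The mitochondrial ribosomal protein transcripts were detected less widely in treated than in control pools on 3 of 4 arrays. A gene was counted as detected if any of its probes was well above background. In treated pools 42, 23, 27 and 29 of the 75 members were detected in replicates 1 to 4, against 38, 41, 42 and 43 in control pools. Replicate 1 had more members detected in the treated pool, and the other 3 arrays had more in the control pool. The same turn was seen over all probes on the array, of which 25.4% in replicate 1 and 16.1% to 18.5% on the other arrays were above background in treated pools, against 19.0% in replicate 1 and 21.7% to 24.5% in control pools. The member probes followed it with 42.4%, 21.6%, 23.2% and 29.6% in treated pools, against 37.6%, 40.8%, 39.2% and 44.0% in control pools.

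**Figure D1:**
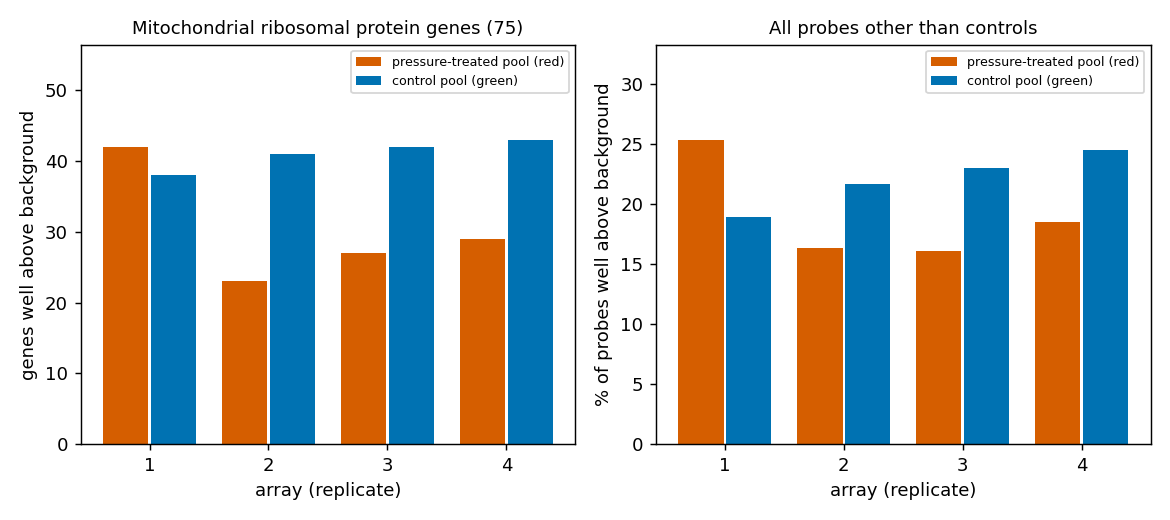
Bars on the left give the number of the 75 members well above background on each of the 4 arrays, and bars on the right the percent of all probes, with the treated pool (red channel) left of the control pool (green channel). In replicate 1 the treated pool has the higher bar in both panels, and in replicates 2, 3 and 4 the control pool has it.

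To be tested, a probe had to exceed background clearly in 1 of the channels on 3 or more arrays. This kept 40 of the 75 members, 26 Mrpl and 14 Mrps genes, among 6924 tested genes. Of the kept members, 24 passed in both channels, Mrps2 alone passed in the treated channel only, and 15 passed in the control channel only. A pass in 1 channel only favours a ratio that leans toward that channel, without fixing its sign. Mrps2 had a mean log2 ratio above 0, and all 15 of the control-only members had one below 0. Over all genes the same lean was seen, with 15.5% of 251 treated-only genes below 0 and 76.7% of 1401 control-only genes below 0.

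No mitochondrial ribosomal protein gene passed the test. At an adjusted p of 0.05 (limma, Benjamini-Hochberg over 6924 genes) 0 of 40 members were called, and 0 genes of the whole array were (0%). At an unadjusted p of 0.05, 0 members were higher and 2 were lower in treated pools, which is 5% of members beside 3.44% of all tested genes lower and 0.737% higher. The log2 ratio of treated over control was below 0 on all 4 arrays for 5 members (12.5%), beside 9.33% of all genes with 4 values. It was above 0 on all 4 arrays for 1 member (2.5%), beside 2.94% of all genes. These shares lie near the background of the array. The mean lay below 0 for 30 of 40 members (75%), beside 52.4% of all tested genes. Among the 24 members detected in both channels it lay below 0 for 15 (62.5%), beside 47.7% of such genes.

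**Figure D2:**
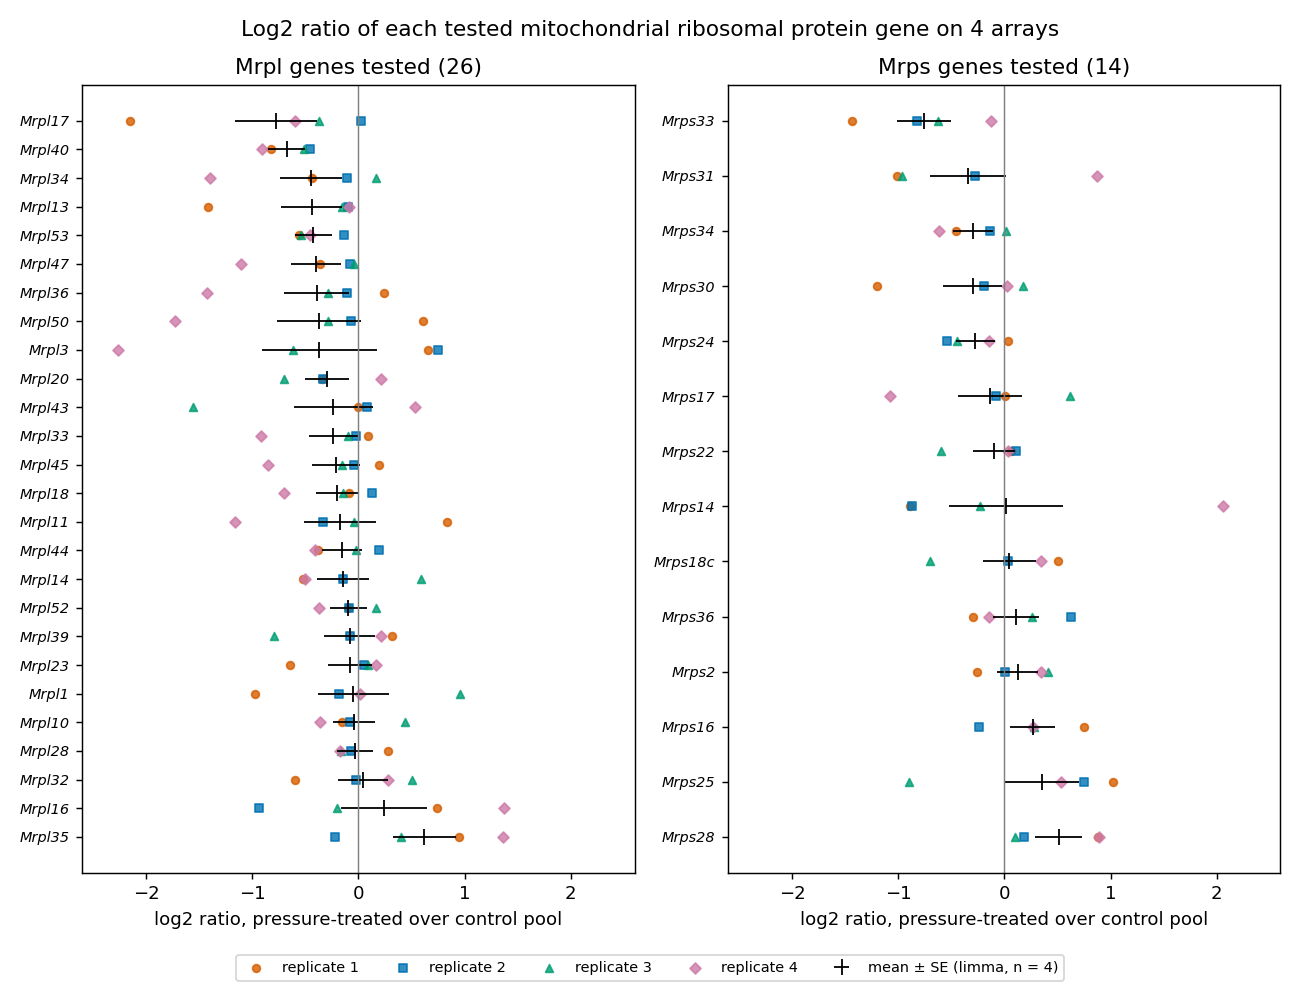
Log2 ratio of treated over control for each of the 40 tested members, Mrpl genes on the left and Mrps genes on the right, with 1 point per array and the mean ± SE from limma (n = 4). Of the 40 means 30 lie below 0, and Mrpl40, Mrpl53, Mrpl47, Mrpl13 and Mrps33 lie below 0 on every array.

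The large-subunit genes lay lower, as a list, than the small-subunit genes, on the mean over arrays but not beyond the spread between arrays. The median log2 ratio of the 26 Mrpl genes was -0.13, -0.08, -0.15 and -0.43 in replicates 1 to 4, a mean of -0.20 ± 0.16 (SD, n = 4). That of the 14 Mrps genes was -0.12, -0.11, -0.11 and 0.15, a mean of -0.05 ± 0.13. The median of all tested genes was between -0.04 and 0.00 on every array. Both lists thus sat slightly below the array's median on the first 3 arrays, and they parted on replicate 4.

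The Mrpl median minus the Mrps median was -0.0064, 0.03, -0.04 and -0.58, a mean of -0.15 ± 0.29 (SD, n = 4). Replicate 4 supplied most of that difference. Without replicate 4 the mean difference was -0.0058, and without replicate 1 it was -0.20 ± 0.33 (SD, n = 3). The Mrpl median was -0.12 and the Mrps median -0.11 without replicate 4. Of the Mrpl genes 23 of 26 had a mean below 0, and of the Mrps genes 7 of 14 did. Restricted to genes detected in both channels, the counts were 11 of 14 Mrpl genes and 4 of 10 Mrps genes, and the difference of medians was -0.24, -0.03, 0.24 and -0.74 on the 4 arrays. That makes a mean of -0.19 ± 0.42 (SD, n = 4), with 3 arrays below 0 and 1 above. With median centring in place of loess, which put the median over every tested gene at -0.34, the difference turned to 0.02, with the Mrpl list at -0.41 and the Mrps list at -0.43.

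**Figure D3:**
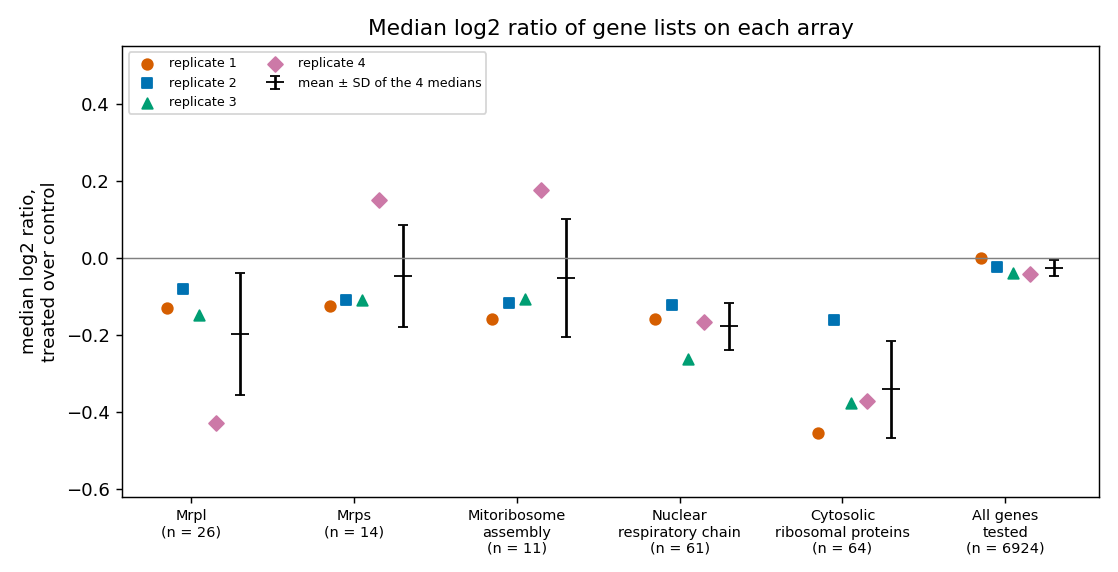
Median log2 ratio of treated over control on each of the 4 arrays for Mrpl genes, Mrps genes, related gene lists and all tested genes, with 1 point per array and the mean ± SD of the 4 medians. Mrpl and Mrps medians lie close together on replicates 1 to 3, and on replicate 4 they are -0.43 and 0.15.

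Among large-subunit proteins, Mrpl40 had the smallest p. Mrpl40 belongs to the proteins of the mitochondrial ribosome with no bacterial counterpart, and its human gene lies in the chromosomal interval deleted in DiGeorge syndrome. Its normalised signal was 435, 236, 127 and 178 in treated pools, against 771, 325, 181 and 336 in control pools. The treated pool was lower than its own control on every array, although the ranges of the groups overlapped because signals differed between arrays. The log2 ratios were -0.83, -0.46, -0.51 and -0.91, a mean of -0.68 ± 0.18 (SE, n = 4; unadjusted p = 0.0099, limma adjusted p = 0.93). That is 0.625 of the control signal. Here and below, the SE of a single gene is that of the limma fit. The fit draws each gene's variance toward that of all tested genes, so this SE does not follow from the gene's own SD alone. Without replicate 1 the mean was -0.63.

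The other probes of Mrpl40 did not show a ratio of that size. The probe 63 nt away had a mean log2 ratio of -0.08 and the probe 99 nt away one of -0.07, both with the sequences printed above and each above background on 2 treated and 3 control arrays. Both were dimmer than the used probe on every array, and the offset of the background correction draws ratios of dim probes toward 0. Its part here was not tested. With the mean over its kept probes, Mrpl40 stood at -0.27.

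Mrpl53, another protein found only in mitochondrial ribosomes, had signals of 351, 180, 186 and 130 in treated pools, against 519, 198, 272 and 178 in control pools. Its treated pool was lower on each of the 4 arrays. The log2 ratios were -0.56, -0.14, -0.54 and -0.45, a mean of -0.42 ± 0.17 (SE, n = 4; limma adjusted p = 0.93). Mrpl53 had the smallest spread over arrays among the tested Mrpl and Mrps genes, with an SD of 0.20. Unlike the SE, that SD uses the values of Mrpl53 alone.

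Mrpl47, Mrpl13 and Mrpl17 were dim in treated pools. Mrpl47, a counterpart of a bacterial protein near the exit of the nascent chain tunnel, was well above background on 0 treated and 3 control arrays. Its log2 ratios were -0.36, -0.08, -0.05 and -1.10, a mean of -0.40 ± 0.24 (SE, n = 4; limma adjusted p = 0.93). A bound from detection put its mean signal 1.32-fold lower in treated pools. This bound takes the measured treated signal of Mrpl47 as an upper limit and so equals the fitted ratio. It does not allow for the spread between arrays. Replicate 4 held the lowest value, and without it the mean was -0.16.

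Mrpl17, which has a bacterial homologue on the large subunit, was also above background on 0 treated and 3 control arrays, with a bound of 1.67-fold lower in treated pools (limma adjusted p = 0.93). Its log2 ratios were -2.15, 0.03, -0.37 and -0.60, a mean of -0.78 ± 0.39 (SE, n = 4), and without replicate 1 the mean was -0.32. Mrpl13, a conserved large-subunit protein, was detected on 1 treated and 4 control arrays, with ratios of -1.41, -0.10, -0.16 and -0.09. Replicate 1 thus set most of the mean of Mrpl13 (-0.44 ± 0.29, SE, n = 4), which was -0.11 without it. Such bounds set the control mean against the treated signal or, where it was higher, the dimmest detected signal of that array, leave out the spread between arrays and are open to dye bias, as no array is labelled as a dye swap.

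The Mrpl genes with the highest means were Mrpl35, Mrpl16 and Mrpl32. Mrpl35, a large-subunit protein with a bacterial homologue, had signals of 629, 320, 164 and 547 in treated pools, against 327, 373, 124 and 213 in control pools. Its log2 ratios were 0.94, -0.22, 0.40 and 1.36, a mean of 0.62 ± 0.30 (SE, n = 4; limma adjusted p = 0.93), so 3 of 4 arrays were above 0. Without replicate 4 the mean was 0.37. Its other kept probe, 745 nt away and detected on 1 treated and 4 control arrays, gave the opposite sign at -0.72, and the mean over both probes was -0.05.

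Mrpl16, which lies close to the peptidyl transferase centre, had 0.74, -0.94, -0.20 and 1.37, a mean of 0.24 ± 0.41 (SE, n = 4). Its arrays split evenly around 0, and its mean turned negative with median centring, array weights or without replicate 4, and it was 0.08 without replicate 1. Mrpl32, which is cut by the m-AAA protease on its way into the ribosome, had a mean of 0.04 ± 0.23, 0.25 without replicate 1, and 2 of its arrays were below 0. Mrpl32 turned negative with median centring and without replicate 3 or 4.

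Mrpl3, a core protein of the large subunit, was well above background in both channels on all 4 arrays and still varied widely. Its signals were 852, 478, 283 and 304 in treated pools, against 543, 285, 434 and 1457 in control pools. Its log2 ratios were 0.65, 0.75, -0.62 and -2.26, a mean of -0.37 ± 0.54 (SE, n = 4). The treated pool was higher on 2 arrays and lower on 2, and without replicate 4 the mean turned to 0.26, while it was -0.71 without replicate 1 and -0.74 without replicate 2. Mrpl44, which carries a fold of the ribonuclease III family, had -0.38, 0.19, -0.03 and -0.41 with both channels detected on all 4 arrays, a mean of -0.16 ± 0.19.

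Among small-subunit proteins, Mrps33 had the smallest p. Mrps33, which has no bacterial counterpart, had signals of 3938, 1951, 774 and 2057 in treated pools, against 10669, 3457, 1196 and 2251 in control pools. All 4 treated pools were lower than their own controls, with replicate 1 farthest and replicate 4 nearly level. The log2 ratios were -1.44, -0.83, -0.63 and -0.13, a mean of -0.76 ± 0.25 (SE, n = 4; unadjusted p = 0.027, limma adjusted p = 0.93). That is 0.592 of the control signal, and without replicate 1 the mean was -0.53. The second Mrps33 probe, printed above and detected on 1 treated and 4 control arrays, had a mean of -0.18. That probe was dimmer than the used one on every array.

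Mrps28 was the only tested member above 0 on all 4 arrays. Its signals were 382, 240, 64.7 and 243 in treated pools, against 208, 211, 60.3 and 131 in control pools. The log2 ratios were 0.88, 0.18, 0.10 and 0.89, a mean of 0.51 ± 0.22 (SE, n = 4; limma adjusted p = 0.93), and 0.39 without replicate 1. Replicates 1 and 4 were high, and replicates 2 and 3 lay close to 0. Mrps28 was well above background on 3 treated and 3 control arrays. Its replicate 3 signals were close to those of Mrpl12, a gene not detected on any array. Mrpl12 read 55.3 in the treated and 59.9 in the control pool there, so the sign of Mrps28 on replicate 3 is uncertain. A defect of this gene in humans impairs mitochondrial translation.

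Mrps25 and Mrps16 also had means above 0. Mrps25, a small-subunit protein specific to mitochondria, had 1.03, 0.75, -0.90 and 0.53, a mean of 0.35 ± 0.35 (SE, n = 4), with 3 of 4 arrays above 0. Mrps16, a homologue of a bacterial small-subunit protein, had 0.75, -0.24, 0.28 and 0.27, a mean of 0.26 ± 0.21 (SE, n = 4). Leaving out 1 array moved Mrps25 to between 0.13 (without replicate 1) and 0.77 (without replicate 3), and Mrps16 to between 0.10 (without replicate 1) and 0.43 (without replicate 2). Both turned negative with median centring, to -0.23 for Mrps25 and -0.16 for Mrps16. That setting put the median of all tested genes at -0.34, so both stayed above it.

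Mrps14, a homologue of a bacterial protein of the small-subunit head, had the widest range of the tested Mrps genes and was singled out after its values were seen. Its signals were 651, 456, 299 and 2552 in treated pools, against 1205, 833, 352 and 614 in control pools. The log2 ratios of Mrps14 were -0.89, -0.87, -0.23 and 2.05, so 3 arrays were below 0 and replicate 4 alone was above, and the mean was 0.02 ± 0.54 (SE, n = 4).

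Some proteins named Mrps do not sit in the small subunit. Mrps30 is a component of the large subunit despite its name, and Mrps36 is a subunit of the 2-oxoglutarate dehydrogenase complex. Mrps30 had -1.20, -0.19, 0.17 and 0.02, a mean of -0.30 ± 0.28 (SE, n = 4), 0.0024 without replicate 1 and -0.45 without replicate 3. Mrps36 had -0.30, 0.63, 0.26 and -0.14, a mean of 0.11 ± 0.22, with -0.06 without replicate 2, 0.25 without replicate 1 and -0.57 with median centring. With the genes placed by the particle their proteins lie in, the Mrpl minus Mrps difference was -0.17.

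Mrps18c, 1 of 3 related proteins that descend from a single bacterial one, had 0.51, 0.04, -0.70 and 0.35, a mean of 0.05 ± 0.25 (SE, n = 4). The mean turned negative under 6 alternatives and without replicate 1 or 4. Among those alternatives, processed signals and the authors' values gave the same ratio and are not separate evidence. Its relatives Mrps18a and Mrps18b were not above background in either channel on any array. Mrps34, a mitochondria-specific protein needed for a stable small subunit, was detected on 1 treated and 3 control arrays with -0.46, -0.14, 0.02 and -0.61, a mean of -0.30 ± 0.19, and -0.19 without replicate 4. Mrps2 had 0.12 ± 0.19, 0.25 without replicate 1 and 0.03 without replicate 3, and its other kept probe had -0.08. Mrpl18, likewise with probes of opposite sign, had -0.20 ± 0.20 at the used probe and 0.15 at the other, with -0.03 at the used probe without replicate 4.

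The mitochondrial ribosome combines proteins of bacterial descent with proteins added in the mitochondrial lineage, and both kinds were measured. The 24 tested members with a bacterial homologue (of 45) had array medians of -0.13, -0.09, -0.07 and -0.16, and 17 of them had a mean below 0. The 14 tested members specific to mitochondria (of 28) had medians of -0.24, -0.08, -0.53 and -0.25, with 13 below 0. Mrps28 and Mrps36, with means of 0.51 and 0.11, were placed in neither list. Mrps18a and Mrps18b were counted as specific to mitochondria despite their bacterial descent, and neither was tested. Bacterial-homologue minus mitochondria-specific medians were 0.12, -0.0088, 0.46 and 0.09, a mean of 0.16 ± 0.20 (SD, n = 4). The difference was within the spread between arrays. Over all tested genes 52.4% had a mean below 0. All 15 members that passed in the control channel only, which favours a ratio below 0, are in these 2 lists. Mrpl39, Mrpl45, Mrpl50, Mrpl52 and Mrps34 are in the mitochondria-specific list and the rest in the other. The difference was not taken over members detected in both channels alone.

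The 35 members not tested, 20 Mrpl and 15 Mrps genes, gave little signal. Of these, 22 were not above background in either channel on any array, 7 were above it on at least 1 treated array and 13 on at least 1 control array. Their median unfiltered log2 ratio was -0.02, and their means ran from -0.16 for Mrps12 to 0.12 for Mrpl55. Mrpl12, which also binds the mitochondrial RNA polymerase, was not detected on any array, and Mrps12, a protein of the decoding centre, was detected in control pools on 2 arrays only. Ratios of such dim probes are drawn toward 0 by the offset, so they give no evidence of equal levels. Undetected probes read higher on replicate 2. Mrpl12 had 159 in the treated and 160 in the control pool there, against 55.3 to 60.2 on the other arrays. Over all 75 members without the filter, the median was -0.06 for Mrpl genes, -0.0082 for Mrps genes and 0.0014 for all genes, and 52 of the 75 were below 0.

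**Figure D4:**
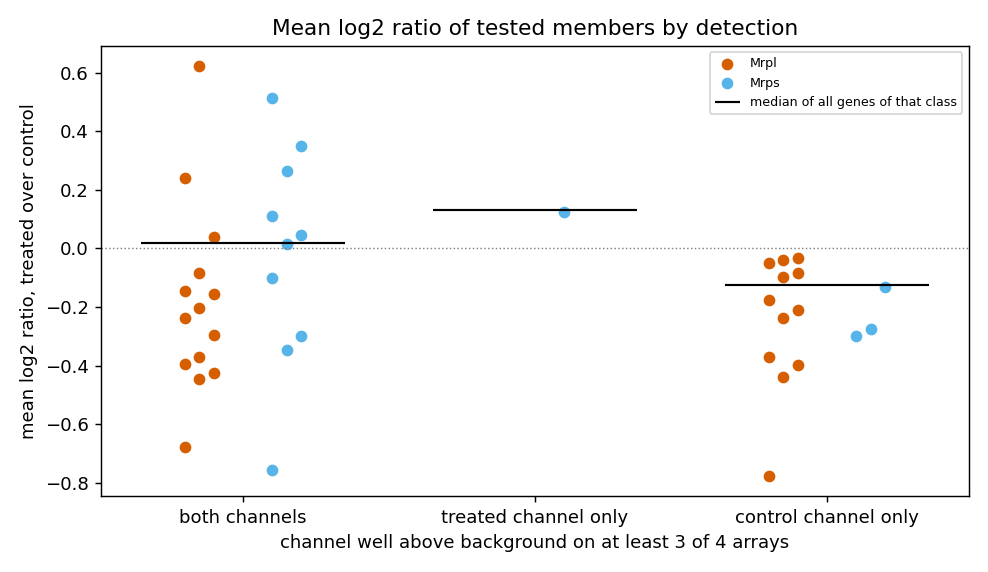
Mean log2 ratio of treated over control (vertical axis) by the channel in which the probe passed the detection filter, with 1 point per tested Mrpl or Mrps gene and a line at the median of all tested genes of that class. The 15 members that passed in the control channel only all lie below 0, and of the 24 that passed in both channels 15 do.

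Other genes needed for mitochondrial translation were read for comparison, and 0 of them passed the adjusted test in either direction. Beside the counts of means below 0 that follow, the share over all tested genes was 52.4%. Of mitoribosomal proteins under other names, 6 of 7 on the array were tested and 4 had a mean below 0. Chchd1, a small-subunit protein, was above 0 on all 4 arrays with 0.70, 0.28, 0.02 and 0.48, a mean of 0.37 ± 0.19 (SE, n = 4). Mrpl58, a peptidyl-tRNA hydrolase that became part of the large subunit, had -0.36 ± 0.26, -0.53 without replicate 1 and -0.10 without replicate 3. It was detected on 2 treated and 4 control arrays, and so passed in the control channel only, which favours a ratio below 0.

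Of translation factors, 4 of 14 on the array were tested, and 4 had a mean below 0. Among them Mtfmt and Lrpprc, with means of -0.07 and -0.01, passed the filter in the control channel only. Such a pass favours a ratio below 0, as 76.7% of all control-only genes lay there. Mrrf, the ribosome recycling factor, had -0.79, 0.10, -1.26 and -0.55, a mean of -0.62 ± 0.26 (SE, n = 4; limma adjusted p = 0.93), and -0.41 without replicate 3. Slirp, the partner of Lrpprc in stabilising mitochondrial messenger RNAs, had -0.70 ± 0.45, -0.98 without replicate 1 and -0.15 without replicate 4. Both were lower in treated pools on 3 of 4 arrays.

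Of mitochondrial aminoacyl-tRNA synthetases, 2 of 20 were tested, and they lay on opposite sides of 0. Wars2, which charges the tryptophan tRNA, was detected on 4 treated and 2 control arrays and had 0.37, 0.90, 0.43 and 1.13, a mean of 0.71 ± 0.21 (SE, n = 4; unadjusted p = 0.016, limma adjusted p = 0.93). Lars2, which charges leucine tRNAs, had 0.37, -2.48, -0.70 and -0.59, a mean of -0.85 ± 0.47. Replicate 2 held the lowest value of Lars2, and without it the mean was -0.31. Without replicate 1 the mean of Lars2 was -1.26.

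Of assembly and ribosomal RNA modification factors, 11 of 25 were tested and 6 had a mean below 0. Mettl15, a ribosomal RNA methyltransferase, had -0.52 ± 0.27 (SE, n = 4), and -0.27 without replicate 3. Rpusd4, a pseudouridine synthase, was below 0 on all 4 arrays at -0.34 ± 0.19, and its mean was -0.19 without replicate 4. Of genes for mitochondrial transcription and DNA, 3 of 10 were tested. Polrmt, the mitochondrial RNA polymerase, was below 0 on all 4 arrays at -0.35 ± 0.22 (-0.15 without replicate 3). It was detected on 2 treated and 4 control arrays, and so passed in the control channel only, which favours a ratio below 0. Tfam, which packages mitochondrial DNA, had -1.37, 0.58, 1.33 and 1.47. Tfam was thus above 0 on the 3 arrays other than replicate 1, with a mean of 0.50 ± 0.51 that was 1.13 without replicate 1, 0.18 without replicate 4 and -0.14 with median centring. No probe on the array carried the name of a transcript of the mitochondrial genome.

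The cytosolic ribosomal proteins, which form the ribosome outside the organelle, and the nuclear respiratory chain genes, whose proteins assemble with those that the mitochondrial ribosome makes, also had medians below that of the array. For 64 cytosolic ribosomal proteins the array medians were -0.46, -0.16, -0.38 and -0.37, a mean of -0.34 ± 0.13 (SD, n = 4), and 54 lay below 0. For 61 respiratory chain genes they were -0.16, -0.12, -0.26 and -0.17, a mean of -0.18 ± 0.06, and 45 lay below 0. For the 40 members they were -0.13, -0.08, -0.15 and -0.14, a mean of -0.13 ± 0.03. All 3 lists had a median below 0 on each of the 4 arrays. The 40 members include 15 that passed in the control channel only, which leaned below 0. For the 24 members detected in both channels the medians were -0.32, -0.11, -0.22 and 0.10, a mean of -0.14 ± 0.18 (SD, n = 4). Replicate 4 thus lay above 0 for those members.

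Promoter sequence, which the choice by name did not use, was searched for motifs of factors known to act on genes of mitochondrial proteins, and no motif was held by most members. The windows were the 250 bases before the start of each gene from RefSeq (GRCm38.p6), found for 66 of the 75 members, and both strands were searched. The letters CCGGAAG, bound by ETS factors such as GABP, were in 15 of 66 members (22.73%), beside 7.07% of 27025 promoters. They were in 10 of 40 Mrpl windows and 5 of 26 Mrps windows. The NRF1 motif, searched as GCGCA, any base, then GCGC, was in 13.64% of members and 3.87% of all promoters, with 8 of 40 Mrpl windows and 1 of 26 Mrps windows. The SP1 letters GGGCGG were in 46.97% beside 32.96%, and the YY1 motif was in 1 member. The upstream window of Mrpl53, which was below 0 on all 4 arrays, is shown because it holds 2 ETS matches, set in capitals and lying on opposite strands.
Mrpl53 chr6:83108858-83109107, plus strand, GRCm38.p6: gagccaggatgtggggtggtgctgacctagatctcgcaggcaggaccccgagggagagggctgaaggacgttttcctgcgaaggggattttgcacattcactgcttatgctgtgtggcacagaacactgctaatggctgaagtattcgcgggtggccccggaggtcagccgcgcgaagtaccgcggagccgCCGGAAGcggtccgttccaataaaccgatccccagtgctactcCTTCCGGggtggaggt
The windows of Mrpl40 and Mrps33 held no match to the ETS, NRF1 or YY1 motif. A match describes the letters only, and binding was not measured. The 75 genes lie on 17 chromosomes, with at most 10 on 1 of them, so the list is not a single cluster. The median GC content of the used probes was 41.7% for Mrpl genes, 44.2% for Mrps genes and 41.7% for all genes. Over the 40 members the GC content correlated with the log2 ratio at -0.0094, -0.07, 0.26 and -0.03 on the 4 arrays, beside -0.20, 0.13, 0.25 and 0.24 over all genes, which share the array, dye and labelling.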

How the data were processed

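Each of 4 Agilent arrays on 1 slide and 1 scan compared a treated pool (Cy5) with a control pool (Cy3), per the labels. The submitters' processing notes name Agilent Feature Extraction 9.5.1.1. Its deposited output gives for each spot the mean signal intensity and the median intensity of the local background, and, deposited by the authors as well, a log10 ratio of processed signals. Per the file headers those signals were corrected for background and dye. The authors' value table equals that log10 ratio to within 5.0e-10. The files give probe positions in mm7.

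From the intensity values, background was corrected by normexp (offset 50) and arrays were loess-normalized (limma 3.58.1, R 4.3.3; weight 0 for control spots), which gave log2 ratios of treated over control from the deposited intensities. Signals printed are these normalised signals. Control spots and outlier flags were left out, no spot was saturated, and replicate spots were averaged. Probes clearly above background in 1 channel on 3 or more of the 4 arrays were retained (8115 of 41174), and the brightest kept probe represented a gene. limma's lmFit and eBayes tested each log2 ratio against 0, and p-values were adjusted by Benjamini-Hochberg over 6924 genes. The procedure was tested on simulated data. The 125 member probes kept the files' names, and 106 matched RefSeq by accession and 19 by symbol. A further 5 probes that RefSeq gives an Mrpl name were deposited under other names and stayed out of the members.

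Genes named are, as none passed, up to 6 genes of smallest p per subunit among those of 1 sign on all 4 arrays (4 Mrpl and 2 Mrps genes met this), the 3 of highest mean in each, 9 members picked for their role, members above background on 3 or more arrays in 1 channel and on 0 in the other, members whose probes disagree in sign, and 2 of smallest p in each further list. Mrpl44 and Mrps14 were added after their values were seen. The members and lists were chosen with earlier results of these data known, so lists have counts and medians and no p. Alternatives covered background, normalization, filters, probes, eBayes settings, array weights, the authors' table and each array left out in turn.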

Additional observations from a re-analysis of the deposited data

Results flagged for a closer look

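An array lay far from the other 3 in 5 of 51 sets of values that were examined, and chance gives about 5% of sets. In 4 of the 5 the far array was replicate 4. The Mrps median was 0.15 there, against -0.12 to -0.11 on the other arrays. The median of the mitoribosome assembly factors was 0.18 there, against -0.16 to -0.11. The median of the 15 members detected in the control channel only was -0.60 there, against -0.09 to 0.0095. The Mrpl median minus the Mrps median was -0.58 there, against -0.04 to 0.03, and it shares its values with the Mrps median. For Mrpl13 the far array was replicate 1 with a log2 ratio of -1.41, against -0.16 to -0.09 on the others.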

How the results depend on the processing

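With 4 arrays and no labelled dye swap, precision is limited by the number of arrays and by dim probes. The count of members past an adjusted p of 0.05 (limma) was 0 under every setting run, while 1 to 6 members had an unadjusted p below 0.05. It was 6 of 40 members with processed signals and with the authors' values, beside 513 and 512 of 6924 genes. It was 1 of 40 with median centring, beside 141 of 6924 genes, and without replicate 1, beside 756 of 6923 genes. Among members the smallest adjusted p was 0.39, without replicate 1. Processed signals and the authors' values each moved the Mrpl median to -0.77, the Mrps median to -0.27 and their difference to -0.50, with the median of all genes at -0.12. Without background subtraction the Mrps median was -0.18. Median centring gave -0.41 for Mrpl and -0.43 for Mrps, with the median of all genes at -0.34. Leaving out each array in turn, the Mrpl median ran from -0.24 to -0.12, the Mrps median from -0.11 to -0.02 and the difference from -0.21 to -0.0058. The causes were not tested.

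Of single genes, Mrps18c turned to -0.88 with processed signals and with the authors' values, -0.017 without background subtraction, -0.027 with an offset of 16, -0.21 with median centring and -0.091 with array weights. Median centring also turned Mrpl16 to -0.15, Mrpl32 to -0.12, Mrps25 to -0.23, Mrps16 to -0.16, Mrps36 to -0.57 and Tfam to -0.14. The genes it turned, other than Mrps36, stayed above the median of all genes under that setting, which was -0.34. The mean over probes turned Mrpl35 to -0.050, and array weights turned Mrpl16 to -0.33 and Mrpl3 to 0.012. Genes dim in 1 channel kept their sign but moved far with the authors' values. Mrpl47 went to -2.67, Mrpl13 to -2.09 and Mrpl17 to -3.72, and Wars2, dim in control pools, went to 3.20. Leaving out an array turned Mrps18c to -0.11 and Mrps30 to 0.0024 (replicate 1), Mrps36 to -0.061 (replicate 2), Mrpl32 to -0.11 (replicate 3), and Mrpl16 to -0.13, Mrpl32 to -0.039, Mrpl3 to 0.26 and Mrps18c to -0.053 (replicate 4). Over the arrays left out in turn, Mrpl16 reached up to 0.63, Mrpl32 0.25, Mrps18c 0.30 and Mrps36 0.25, and Mrpl3 reached down to -0.74 and Mrps30 to -0.45. Across all settings, leave-one-out included, 419 other values for single genes kept their direction and their side of the threshold. That count does not measure robustness, as many of these values could not turn. Scaling between arrays, eBayes settings and detection filters left the ratios of these genes unchanged, and the authors' values nearly repeat the processed signals. Keeping probes detected in both channels on at least 3 arrays, chosen after seeing the data, left 25 members tested with 16 below 0. No paired analysis was possible because each log2 ratio already pairs the pools of an array and there is 1 group of ratios. A slide block was not run, as all arrays lie on 1 slide with 1 scan.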

Other observations

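The spread over genes differed between arrays. The SD of the log2 ratio over the 26 tested Mrpl genes was 0.71, 0.28, 0.51 and 0.85 in replicates 1 to 4, beside 0.75, 0.50, 0.70 and 0.88 over all tested genes. Over the 40 tested members the ratios of pairs of arrays correlated between -0.33 (replicates 2 and 4) and 0.26 (replicates 1 and 2). Genes on 1 array share its labelling and hybridisation and are not independent replicates.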
